A study of Mus musculus with 4 samples.

Results

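Granzymes and perforin are the killing proteins stored in the secretory granules of cytotoxic lymphocytes. The 10 genes described here are Gzma, Gzmb, Gzmc, Gzmd, Gzme, Gzmf, Gzmg, Gzmk, Gzmm and Prf1, taken by name from the 21146 genes of the deposited expression table, in which all 10 had a row. They were sorted by their 3 granzyme loci: the cluster on chromosome 14, the pair on chromosome 13, and Gzmm on chromosome 10. Prf1 also lies on chromosome 10 but is no granzyme.

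RNA sequencing had measured T cells taken from tumours of C57BL/6 mice, 21 days after the tumour was inoculated. A first group of 2 libraries was labelled HPK1-/-, a knockout of Map4k1, the gene for the kinase HPK1, which dampens signalling from the T cell receptor. A second group of 2 libraries was labelled wild type, with the same strain, time and cell type. The labels did not give the tumour, the sorting gate or the knockout allele, and did not say if each library was from a mouse of its own. The p-values below therefore reflect how far these particular libraries scatter, and that scatter may be technical.

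Killing by granules needs both kinds of protein. Perforin opens pores that let granzymes, a family of serine proteases, reach the inside of the target cell, where each granzyme cuts a different set of substrates. Granzyme B is best known for starting the caspase pathway of apoptosis and granzyme A for a tryptase-like activity, while the chromosome 14 cluster of the mouse holds a run of further copies, granzymes C to G, without direct human counterparts. Perforin and granzyme genes are switched on as a naive T cell becomes an effector cell.

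Map4k1 itself had 20.6 and 26.5 FPKM in the HPK1-/- libraries, against 48.9 and 41.1 FPKM in the wild-type libraries. FPKM counts the fragments of a gene per kilobase of its length, scaled to the library, so that genes of unequal length can be set side by side. The transcript was lower in both HPK1-/- libraries (log2 fold change -0.91 ± 0.15, SE; adjusted p = 0.0134, or 0.0634 without HPK1-/- library 1), but it was present in all 4. Whether the remaining fragments fall outside the deleted part cannot be seen in values per gene. From 11609 to 11825 genes reached 1 FPKM per library, and totals over all genes were 871584 and 878585 FPKM in the HPK1-/- libraries, against 975047 and 975107 FPKM in the wild-type libraries. The low values fell on steps that place the scale behind the FPKM near 20200000 to 23200000 fragments per library. Such a scale includes any scaling across libraries, so it is not the sequencing depth itself.

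Of the 10 genes, 7 were lower in HPK1-/- T cells and none was higher, by limma on log2(FPKM + 1) with p-values adjusted over all 11947 genes tested and a threshold of 0.05. In the same fit, 28.4% of all tested genes were called, 13% lower and 15.4% higher. The 10 were chosen with earlier results of these data known, so their share is not independent of them. The 7 were Gzma, Gzmc, Gzmd, Gzme, Gzmf, Gzmg and Prf1, and their calls held in each of the 14 alternative analyses, with an adjusted p of at most 0.0323. Gzmb, Gzmk and Gzmm were not called. Without adjustment 8 of the 10 had p under 0.05, the 7 and Gzmb, all of them lower. The median log2 fold change, always HPK1-/- minus wild type, was -2.72 over the 10 genes and 0.04 over all genes tested. Of the 10, 6 had a log2 fold change of -2 or below, a size reached by 0.661% of all genes tested. In all 10 the libraries of one genotype lay wholly above those of the other, as did 70.0% of all tested genes, and in 9 the HPK1-/- libraries were the lower ones, as in 31.4% of all tested genes. These are T cell preparations and not single cells, so fewer cells that make a granzyme and less of its RNA per cell cannot be told apart.

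**Figure D1:**
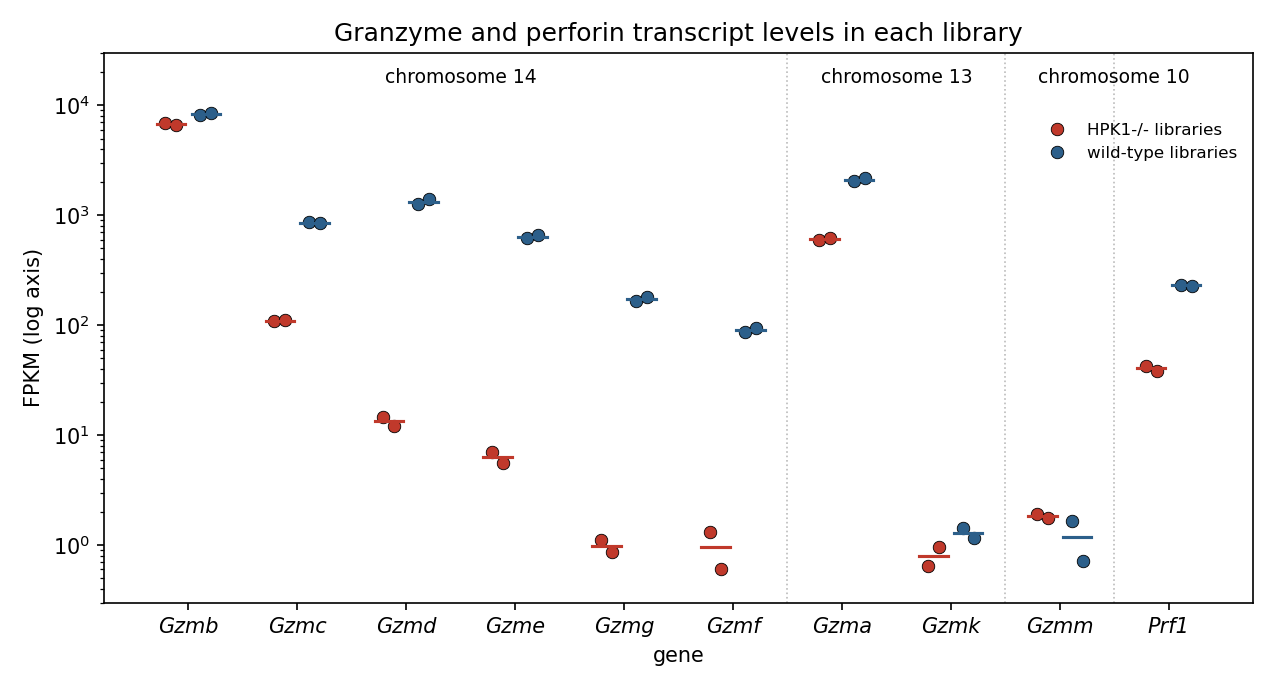
FPKM of the 9 granzymes and Prf1 in each library, on a log axis. Points are single libraries, with HPK1-/- in red to the left and wild type in blue to the right for each gene; short lines are means of 2 libraries. Gzmd, Gzme, Gzmg and Gzmf are separated most widely, and Gzmb, Gzmk and Gzmm least.

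The chromosome 14 cluster held both the granzyme with the smallest shift among the abundant ones and the 4 with the lowest fold changes of the table on the log2(FPKM + 1) scale. In order along the chromosome it runs Gzme, Gzmd, Gzmg, Gzmn, Gzmf, Gzmc, Gzmb, from position 56117626 to 56262260 of GRCm38, a span of 145 kb, with every gene on the minus strand. Read from the Gzmb end, the difference was small in Gzmb, larger in Gzmc and larger again in Gzmf, Gzmg, Gzmd and Gzme, whose order among themselves depends on the value added before the log.

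Gzmb, the caspase-activating granzyme, had 6865 and 6671 FPKM in the HPK1-/- libraries, against 8251 and 8573 FPKM in the wild-type libraries. It stayed at very high level in both genotypes, ranking 4 of 21146 genes by mean FPKM in HPK1-/- T cells and 1 in wild-type T cells. The log2 fold change of -0.31 ± 0.09 (SE) did not pass the threshold (adjusted p = 0.0543). Its call depended on the analysis: over the alternatives the adjusted p ranged from 0.0317 to 0.335, and 4 of 14 called it lower. Scaling all libraries to equal FPKM totals, which lifts the median of all genes by 0.14, left a log2 fold change of -0.16.

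Gzmc, a chymotrypsin-like granzyme with killing activity in mouse studies, had 109.7 and 110.8 FPKM in the HPK1-/- libraries. In the wild-type libraries it had 865.5 and 853.3 FPKM. The libraries of each genotype nearly coincided, and the level was 7.8-fold lower in HPK1-/- T cells (log2 fold change -2.95 ± 0.07, SE; adjusted p = 6.24e-05).

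Gzmd to Gzmg are late-appearing mouse granzymes, known from strongly stimulated T cells and from the granulated lymphocytes of the pregnant uterus, and their substrates are poorly known. Gzmd had 14.7 and 12.2 FPKM in the HPK1-/- libraries, against 1259 and 1403 FPKM in the wild-type libraries. Gzme had 7.01 and 5.54 FPKM in the HPK1-/- libraries, against 620.2 and 657.2 FPKM in the wild-type libraries. Each was thus an abundant transcript in wild-type T cells and a minor one in HPK1-/- T cells, with no library between.

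Gzmg had 1.10 and 0.866 FPKM in the HPK1-/- libraries, against 166 and 179 FPKM in the wild-type libraries. Gzmf had 1.32 and 0.602 FPKM in the HPK1-/- libraries, against 86.0 and 94.7 FPKM in the wild-type libraries. In HPK1-/- T cells both were near the lower limit of measurement, at about 16 and 13 fragments for Gzmg and 19 and 9 for Gzmf. The 95% Poisson interval of Gzmf, which covers counting error only, ran from 0.775 to 2.01 FPKM in HPK1-/- library 1 and from 0.269 to 1.12 FPKM in HPK1-/- library 2, so the 2 HPK1-/- values of Gzmf cannot be ordered.

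On the log2(FPKM + 1) scale the difference was -6.53 ± 0.11 for Gzmd, -6.46 ± 0.12 for Gzme, -6.46 ± 0.10 for Gzmg and -5.57 ± 0.19 for Gzmf (SE). These were the 4 lowest fold changes among all 11947 genes, with Gzmd at rank 1, Gzme at 2, Gzmg at 3 and Gzmf at 4. The adjusted p was 2.93e-05 for Gzmd, Gzme and Gzmg and 0.000233 for Gzmf. The added 1 FPKM pulls in the change of genes near 1 FPKM in HPK1-/- T cells, and the ranks hold for this scale only. With 0.1 FPKM added the log2 fold change was -7.33 for Gzmg, -6.66 for Gzme, -6.62 for Gzmd and -6.50 for Gzmf, at ranks 1, 5, 7 and 9. With 5 FPKM added it was -6.18 for Gzmd, -5.84 for Gzme, -4.89 for Gzmg and -4.002 for Gzmf, at ranks 1, 2, 4 and 5. As plain ratios of mean FPKM, the HPK1-/- level was 98.8-fold lower for Gzmd, 102-fold lower for Gzme, 94.3-fold lower for Gzmf and 176-fold lower for Gzmg. Gzmn, a granzyme known from the testis, lies inside the cluster between Gzmg and Gzmf. It was at 0 in both HPK1-/- libraries and in wild-type library 1, and at 0.0711 FPKM, about 1 fragment, in wild-type library 2.

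The order of the granzymes by level differed between the genotypes. In HPK1-/- T cells Gzmb was followed by Gzma, Gzmc, Gzmd, Gzme and Gzmm, all apart from their neighbours, and then by Gzmg, Gzmf and Gzmk, which overlapped. In wild-type T cells Gzmb was followed by Gzma, Gzmd, Gzmc, Gzme, Gzmg and Gzmf, all apart from their neighbours, and then by Gzmk and Gzmm, which overlapped. Gzmc exceeded Gzmd by 7.45-fold and 9.07-fold in the HPK1-/- libraries, while in the wild-type libraries the ratio of Gzmc to Gzmd was 0.687 and 0.608. The ratio of Gzmd to Gzme stayed near the same value throughout, at 2.10 and 2.20 in the HPK1-/- libraries and 2.03 and 2.14 in the wild-type libraries, and the genotypes overlapped.

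The copies of the cluster are alike in sequence, which bears on how well their fragments can be kept apart. Over the coding sequence Gzmd and Gzme shared 93.3% of aligned bases, Gzme and Gzmg 89.5%, Gzmd and Gzmg 86.8%, and Gzmd and Gzmf 83.6%. Gzmc was further off, at 71.5% with Gzmd, and Gzmb shared 76.2% with Gzmc and 65.3% with Gzmd. Among all 50-base stretches of their annotated transcripts, 21.9% of those of Gzmd, 20.6% of Gzme, 19.8% of Gzmg, 7.36% of Gzmf and 4.14% of Gzmc also occurred in another granzyme, and none of Gzmb, Gzma, Gzmk or Gzmm did. Of 100-base stretches only 2 were shared, between Gzmd and Gzmg, and of 150-base stretches none. The read length and the treatment of fragments with several matches are not given in the sources used here, so the division of fragments among Gzmd, Gzme and Gzmg is less certain than their sum. The sum of Gzmd to Gzmg was 24.2 and 19.2 FPKM in the HPK1-/- libraries, against 2132 and 2334 FPKM in the wild-type libraries.

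Upstream of the genes the likeness was of another pattern. Over the 250 bases before the start, Gzmd and Gzme shared 94.8%, Gzmf and Gzmg 82.2%, and Gzmc shared 80.5% with Gzmd and 80.9% with Gzme. Gzmb shared only 44.1% to 47.5% with Gzmc to Gzmg, about what unrelated upstream regions share (44.9% for Gzma and Prf1). The windows were taken from the RefSeq starts. That of Gzmb begins at position 56262335, while its GENCODE gene ends at 56262260, so it lies further from the gene than those of Gzmc to Gzmg. How far this shift lowers the identity of Gzmb was not tested. The 5 cluster genes Gzmc to Gzmg had upstream regions alike among themselves, and the window of Gzmb was unlike them. Gzma and Prf1 shared 43.0% to 47.3% and 42.5% to 47.0% with these 5 upstream. Gzmc, at 80.5% with Gzmd upstream, had a log2 fold change of -2.95, and Gzmd one of -6.53. Whether upstream sequence bears on the differences was not tested. Gzmn shared 79.8% to 83.1% of its coding bases with Gzmd to Gzmg but 44.8% to 47.7% of its upstream bases.

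**Figure D2:**
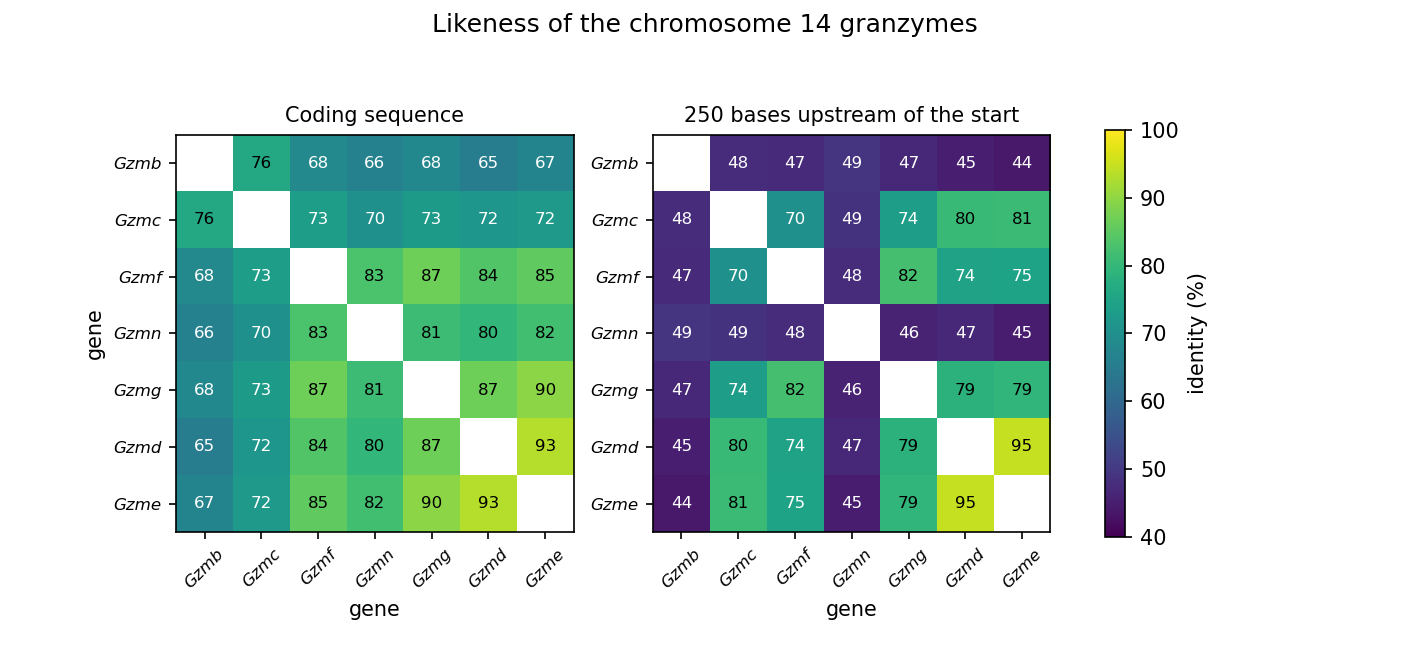
Percent identity between the granzymes of the chromosome 14 cluster, in their order on the chromosome, over the coding sequence (left) and over the 250 bases before the start (right). Colour and printed number give the identity of each pair. Gzmd to Gzmg are alike in both. In the coding sequence Gzmc shares most with Gzmb, at 76.2%, and upstream most with Gzme, at 80.9%, while Gzmb and Gzmn stand apart upstream.

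The last 200 bases before the start are shown for the 6 cluster genes, to let the region of Gzmb be compared with those of Gzmc to Gzmg. They are from the RefSeq promoter table for GRCm38.p6 and lie on the minus strand at chr14:56262335-56262534 for Gzmb, chr14:56234658-56234857 for Gzmc, chr14:56211408-56211607 for Gzmf, chr14:56159580-56159779 for Gzmg, chr14:56132594-56132793 for Gzmd and chr14:56120626-56120825 for Gzme. All are written 5′ to 3′ in the direction of the gene. Capitals mark RUNX motifs (TGTGGT, or ACCACA on the other strand), cAMP response elements (CRE) with at most 1 mismatch downstream of them, and an AP-1 motif (TGANTCA).
Gzmb: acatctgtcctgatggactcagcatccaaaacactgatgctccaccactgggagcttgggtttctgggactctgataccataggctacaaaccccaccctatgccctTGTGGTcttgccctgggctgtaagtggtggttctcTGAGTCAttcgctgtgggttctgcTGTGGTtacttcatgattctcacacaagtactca
Gzmc: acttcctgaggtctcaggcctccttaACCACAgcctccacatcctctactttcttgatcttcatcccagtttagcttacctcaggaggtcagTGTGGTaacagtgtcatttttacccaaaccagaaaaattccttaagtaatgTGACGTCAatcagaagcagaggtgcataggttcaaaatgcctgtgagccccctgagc
Gzmf: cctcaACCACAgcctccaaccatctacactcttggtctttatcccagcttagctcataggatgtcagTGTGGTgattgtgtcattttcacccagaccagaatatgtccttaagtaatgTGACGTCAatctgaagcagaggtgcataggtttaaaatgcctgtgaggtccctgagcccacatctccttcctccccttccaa
Gzmg: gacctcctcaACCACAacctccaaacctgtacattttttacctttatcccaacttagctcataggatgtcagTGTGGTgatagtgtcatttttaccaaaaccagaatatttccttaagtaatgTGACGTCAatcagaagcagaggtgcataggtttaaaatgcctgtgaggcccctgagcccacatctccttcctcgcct
Gzmd: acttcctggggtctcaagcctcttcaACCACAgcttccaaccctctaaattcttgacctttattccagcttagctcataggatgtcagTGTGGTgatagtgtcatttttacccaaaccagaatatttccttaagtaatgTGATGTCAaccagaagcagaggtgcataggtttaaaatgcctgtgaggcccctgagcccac
Gzme: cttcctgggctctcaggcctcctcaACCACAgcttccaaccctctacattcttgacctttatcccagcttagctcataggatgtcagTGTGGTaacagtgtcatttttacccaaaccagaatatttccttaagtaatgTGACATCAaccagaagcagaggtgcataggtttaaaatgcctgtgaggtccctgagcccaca

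Motifs were searched on both strands of the 250 bases, and each is set beside its share of 32851 RefSeq promoters of the same length. All 6 cluster genes had 2 matches to the RUNX motif, which 14% of promoters hold at least once and 1.27% at least 2 times. Outside the cluster, Gzma, Gzmm and Prf1 had a single match each and Gzmk had none. The CRE (TGACGTCA), found in 1.55% of promoters, was present in Gzmc, Gzmf and Gzmg, at -57 to -50, -82 to -75 and -77 to -70 from the RefSeq start. Gzmd had TGATGTCA at -61 to -54 and Gzme TGACATCA at -62 to -55, the changes C4T and G5A, with the base of the motif first and positions counted from 1 at its 5′ end. A CRE with at most 1 mismatch is in 10.6% of promoters, a search added after the exact matches had been seen. In all 5 genes, Gzmc to Gzmg, this element began 51 bases after the start of the nearer RUNX match.

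Gzmb held no CRE in its window but a single AP-1 motif, TGAGTCA at -58 to -52 from its RefSeq start, of a kind found in 6.75% of promoters. That start lies upstream of the GENCODE one, so these positions are not level with those of the other cluster genes. The bases between these starts were not searched, so a CRE there would have been missed. The T-box motif (AGGTGT, in 11.8% of promoters) was matched once in Gzma, once in Prf1 and 2 times in Gzmk, and in none of the chromosome 14 genes. The NFAT core (GGAAA), held by 55.6% of promoters, occurred once in each of Gzmd, Gzme, Gzmf and Gzmg and 2 times in Gzma and Gzmm. The STAT motif, TTC and GAA with 3 or 4 bases between, is in 12.4% of promoters and was matched in Gzmm. The copies of the cluster share ancestry, so shared letters among them are not separate observations, and a match shows the letters, not a bound factor.

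The chromosome 13 pair split into an abundant gene and a rare one. Gzma, the tryptase-like granzyme A, had 599.8 and 625.9 FPKM in the HPK1-/- libraries, against 2044 and 2175 FPKM in the wild-type libraries. It was 3.44-fold lower in HPK1-/- T cells (log2 fold change -1.78 ± 0.08, SE; adjusted p = 0.000651). Gzmk, a second tryptase, had 0.639 and 0.955 FPKM in the HPK1-/- libraries and 1.43 and 1.16 FPKM in the wild-type libraries. These are about 11 and 17 fragments against 24 and 18, and the log2 fold change of -0.35 ± 0.18 (SE) was not called (adjusted p = 0.187). Gzmk shares its position with Esm1 on the other strand, and Gzmf with an antisense gene, Gm4022, that was not analysed here; the strand setting of the counting is not given in the sources used here.

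On chromosome 10, Gzmm, which cuts after methionine or leucine, was the only granzyme with the higher values in HPK1-/- T cells. It had 1.94 and 1.76 FPKM in the HPK1-/- libraries and 1.66 and 0.721 FPKM in the wild-type libraries. The 2 wild-type libraries differed from each other by more than the genotypes, and the log2 fold change of 0.41 ± 0.24 (SE) was not called (adjusted p = 0.243).

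Prf1, which encodes the pore-forming protein, had 42.8 and 38.4 FPKM in the HPK1-/- libraries, against 233 and 230 FPKM in the wild-type libraries. The difference was 5.7-fold (log2 fold change -2.48 ± 0.08, SE; adjusted p = 0.000233). Prf1 fell by more than Gzma and by far more than Gzmb on this scale: the ratio of Gzmb to Prf1 was 160.4 and 173.6 in the HPK1-/- libraries, against 35.4 and 37.4 in the wild-type libraries. The ratio of Gzma to Prf1 was 14.02 and 16.29 in the HPK1-/- libraries, against 8.77 and 9.48 in the wild-type libraries. Both ratios separated the genotypes, but an exact permutation test over 4 libraries cannot give a p below 0.333, the value both reached (two-sided).

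The granzyme pool as a whole was smaller and made up differently. Summed over the 9 granzymes it was 7602 and 7429 FPKM in the HPK1-/- libraries, against 13300 and 13940 FPKM in the wild-type libraries, a ratio of 0.552. Without Gzmb the sum was 736.2 and 758.6 FPKM in the HPK1-/- libraries, against 5045 and 5365 FPKM in the wild-type libraries, a ratio of 0.144. Granzymes made up 0.872% and 0.846% of all FPKM in the HPK1-/- libraries, against 1.36% and 1.43% in the wild-type libraries, which gives a ratio of 0.615 when libraries are scaled to equal totals. Of the fall in the sum, most lay outside Gzmb, although Gzmb is the most abundant of the family.

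By locus, the chromosome 14 cluster held 92.1% and 91.5% of the pool in the HPK1-/- libraries, against 84.6% and 84.4% in the wild-type libraries. The chromosome 13 pair held 7.90% and 8.44% in the HPK1-/- libraries, against 15.4% and 15.6% in the wild-type libraries. Chromosome 10 held 0.0255% and 0.0237% in the HPK1-/- libraries, against 0.0125% and 0.00517% in the wild-type libraries. The share of the chromosome 14 cluster was thus higher in HPK1-/- T cells even though 5 of its 6 tested genes were lower, since the share of Gzmb, its most abundant member, was higher. Gzmb alone was 90.3% and 89.8% of the pool in the HPK1-/- libraries, against 62.1% and 61.5% in the wild-type libraries.

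With Gzmb left out of the sum, chromosome 14 held a mean of 17.7% in the HPK1-/- libraries, against 59.4% in the wild-type libraries, and chromosome 13 held 82.1% in the HPK1-/- libraries, against 40.6% in the wild-type libraries. Chromosome 14 was then the smaller locus of the 2 in HPK1-/- T cells but still the larger in wild-type T cells. Gzma was 81.5% and 82.5% of this remainder in the HPK1-/- libraries, against 40.5% and 40.5% in the wild-type libraries. Gzmd was 2.00% and 1.61% of it in the HPK1-/- libraries, against 24.96% and 26.15% in the wild-type libraries. Gzmc changed little as a part of the remainder, at 14.9% and 14.6% in the HPK1-/- libraries and 17.2% and 15.9% in the wild-type libraries. Gzmc to Gzmg together were 1.76% and 1.75% of the full pool in the HPK1-/- libraries, against 22.5% and 22.9% in the wild-type libraries. The genotypes did not overlap in any of these shares, and each had the exact permutation p of 0.333, the smallest that 4 libraries allow.

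**Figure D3:**
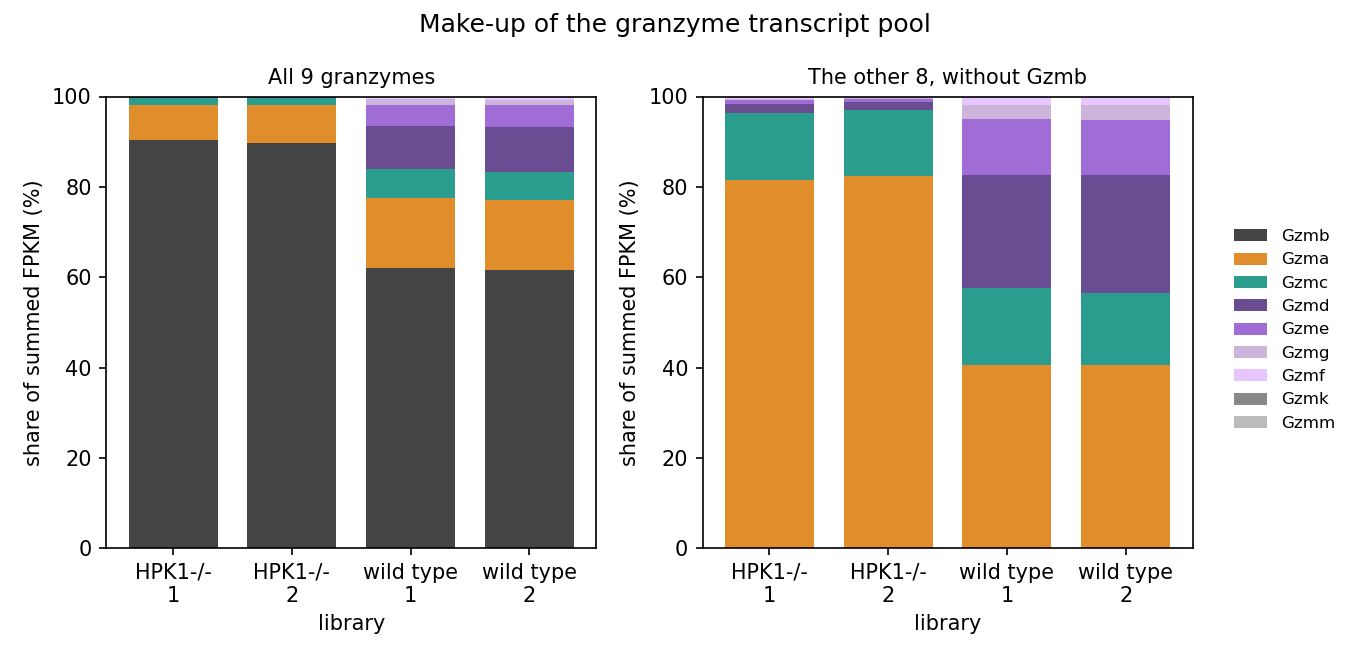
Share of each granzyme in the summed FPKM of all 9 granzymes (left) and of the 8 other than Gzmb (right), as stacked bars from 0 to 100%, one per library, with the HPK1-/- libraries left of the wild-type libraries. Gzmb takes 90.3% and 89.8% in the HPK1-/- libraries, against 62.1% and 61.5% in the wild-type libraries. Without it, Gzma is the main part of the HPK1-/- bars.

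Of 60 tested genes around the loci of the granzymes and of Prf1, 15 were called, a share near the 28.4% of all tested genes. Within 500 kb of the chromosome 14 span, 19 other protein-coding genes were tested, of which 4 were lower, 2 were higher and 13 were not called, with a median log2 fold change of 0.08. The most highly expressed of them was Nedd8, a ubiquitin-like protein, with 222 and 237 FPKM in the HPK1-/- libraries and 284 and 289 FPKM in the wild-type libraries (log2 fold change -0.32 ± 0.08, SE; adjusted p = 0.0332, and 0.0568 to 0.252 with a library left out). Around the chromosome 13 pair 1 of 6 was lower and 1 higher, around Prf1 3 of 8 were lower and 1 higher, and around Gzmm 2 of 27 were lower and 1 higher. The most highly expressed neighbour was Mtrex on chromosome 13, Ppa1 near Prf1 and Atp5d near Gzmm, with log2 fold changes of 0.51, 0.20 and -0.29, of which only that of Mtrex passed the threshold. Over all the loci 10 neighbours were lower and 5 higher. With HPK1-/- library 1 or 2 left out fewer neighbours passed, as did fewer of all tested genes, and Mtrex was among those lost.

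The exceptions close to the cluster were the proteases beside Gzme. Mcpt8, a mast cell and basophil protease that lies 32.4 kb beyond Gzme, had 0.0752 and 0.0727 FPKM in the HPK1-/- libraries, about 1 fragment in each, against 5.51 and 5.88 FPKM in the wild-type libraries (log2 fold change -2.64 ± 0.14, SE; adjusted p = 0.000908). Ctsg, cathepsin G, which lies between them, had 0.0602 and 0 FPKM in the HPK1-/- libraries, against 0.925 and 1.40 FPKM in the wild-type libraries, and fell short of the filter for testing. Ltb4r1, a leukotriene receptor gene 349 kb beyond Gzme, had 27.1 and 25.9 FPKM in the HPK1-/- libraries, against 56.4 and 49.6 FPKM in the wild-type libraries (log2 fold change -0.97 ± 0.10, SE; adjusted p = 0.00445). These 3 were singled out after their values were seen. Cpa3, another mast cell and basophil gene, was at 0.0374 and 0.0724 FPKM in the HPK1-/- libraries and 0.0776 and 0.166 FPKM in the wild-type libraries.

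**Figure D4:**
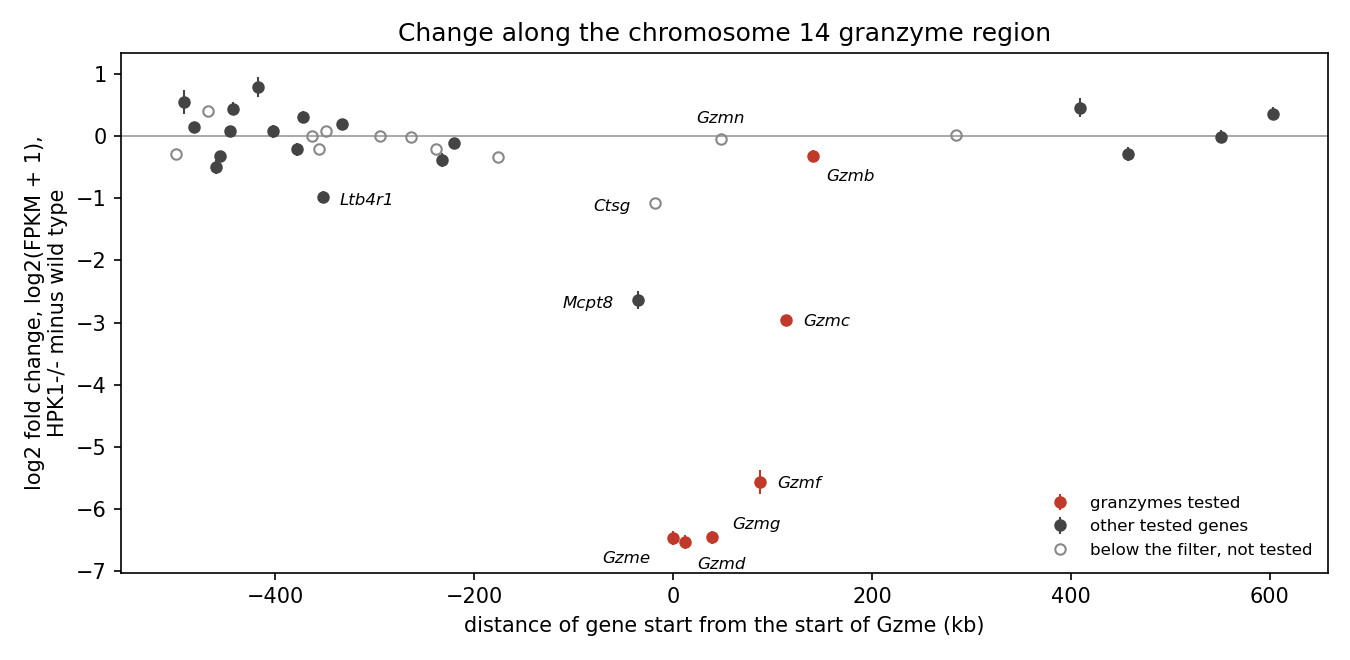
Log2 fold change, HPK1-/- minus wild type, of the genes within 500 kb of the chromosome 14 granzymes, by distance from the start of Gzme in kb. Red points are granzymes, dark points other tested genes (bars are SE), and open points genes below the filter, shown by their mean difference without a test. The 6 values below -2 lie between Mcpt8 and Gzmc, with Gzmn near 0 among them and Gzmb at -0.31 at the edge, and Ltb4r1 at -0.97 lies outside.

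Some genes that load, store and release granules were also lower in HPK1-/- T cells. Of 23 listed, 22 were tested: 8 were lower, 1 was higher and 13 were not called in HPK1-/- T cells, with a median log2 fold change of -0.21, beside 0.04 over all genes. That is 36.4% lower and 4.55% higher, where 13% and 15.4% of all tested genes were. This list, like those below, was chosen with earlier results of these data known, so its shares are not independent of them. Srgn encodes serglycin, the proteoglycan that holds granzymes in the granule. It had 222 and 246 FPKM in the HPK1-/- libraries, against 467 and 479 FPKM in the wild-type libraries (log2 fold change -1.01 ± 0.08, SE; adjusted p = 0.0031). Ctsh, a cathepsin able to activate granzyme precursors in mice, had 0 and 0.284 FPKM in the HPK1-/- libraries, against 4.19 and 2.87 FPKM in the wild-type libraries (adjusted p = 0.00617). Ctsc, the main activator of granzyme precursors, had 57.6 and 47.6 FPKM in the HPK1-/- libraries and 39.4 and 42.4 FPKM in the wild-type libraries, and was not called (adjusted p = 0.0739).

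In the release machinery, Stx11, Vamp8, Sytl2 and Snap23, which act in the docking and fusion of granules, were lower in HPK1-/- T cells, by log2 fold changes of -0.74, -0.73, -0.57 and -0.46. Cd63, a tetraspanin of the granule membrane, was lower too (log2 fold change -1.60), and Ctsw, a cathepsin of cytotoxic cells with no settled role, was higher by 0.33. Nkg7, a granule protein needed for full degranulation, had 824 and 866 FPKM in the HPK1-/- libraries, against 1140 and 1038 FPKM in the wild-type libraries (log2 fold change -0.36 ± 0.09, SE; adjusted p = 0.0339). Rab27a and Unc13d, both required for granule release, and Lamp1, a granule membrane protein, were not called, with log2 fold changes of -0.20, -0.22 and 0.05. Of the 9 calls, those of Srgn and Ctsh passed with any single library left out. With HPK1-/- library 1 or 2 left out fewer genes of the list were called, as were fewer of all tested genes. The call of Ctsw was lost in both cases. The call of Cd63 was lost when wild-type library 1 or 2 was left out (adjusted p up to 0.0845), that of Nkg7 without wild-type library 1 or an HPK1-/- library (up to 0.227), and that of Snap23 without wild-type library 2 or an HPK1-/- library (up to 0.186).

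The other killing and effector molecules of the list were divided. Ifng, the cytokine interferon gamma, had 9.27 and 10.2 FPKM in the HPK1-/- libraries, against 478 and 465 FPKM in the wild-type libraries (log2 fold change -5.46 ± 0.08, SE; adjusted p = 2.93e-05). Fasl, the death receptor ligand, had 24.0 and 23.1 FPKM in the HPK1-/- libraries, against 32.2 and 43.5 FPKM in the wild-type libraries (adjusted p = 0.0313). Tnf had 36.3 and 39.0 FPKM in the HPK1-/- libraries, against 45.2 and 49.2 FPKM in the wild-type libraries (adjusted p = 0.049). Tnfsf10, Lta and Ltb were not called, with log2 fold changes of 0.12, 0.03 and -0.12. Thus 3 of 6 were lower and 0 higher (median -0.22), where 13% and 15.4% of all tested genes were (median 0.04). None of the 6 was higher at an unadjusted p under 0.05 either. With HPK1-/- library 1 or 2 left out only Ifng of these passed and the call of Fasl was lost, while calls over all tested genes also fell in number. Tnf was lost with any single library left out, at an adjusted p of 0.0527 to 0.285.

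Transcription factors known to act on granzyme genes or on the effector programme also changed in part. Of 32 tested, 10 were lower, 3 were higher and 19 were not called in HPK1-/- T cells. The median log2 fold change was -0.16, beside 0.04 over all genes tested. That is 31.2% lower and 9.38% higher, where 13% and 15.4% of all tested genes were. The AP-1 subunits Junb and Jun were lower: Junb had 66.6 and 68.2 FPKM in the HPK1-/- libraries, against 226 and 177 FPKM in the wild-type libraries (log2 fold change -1.55 ± 0.13, SE; adjusted p = 0.00302), and Jun had a log2 fold change of -0.93 (adjusted p = 0.00359). Id2, which restrains E proteins in effector cells, had 248 and 250 FPKM in the HPK1-/- libraries, against 443 and 456 FPKM in the wild-type libraries (log2 fold change -0.85 ± 0.07, SE; adjusted p = 0.0031). Bhlhe40, Irf8 and Irf4, which are induced by stimulation of T cells, were lower, with log2 fold changes of -0.80, -0.96 and -0.59. Zfp683, a factor of tissue-resident T cells also called Hobit, and Ikzf1, the lymphoid factor Ikaros, were higher, with log2 fold changes of 0.70 and 0.54. The other factor called higher was Nfatc2 (log2 fold change 0.52, limma adjusted p = 0.0149). It had 38.4 and 34.7 FPKM in the HPK1-/- libraries, against 24.6 and 25.6 FPKM in the wild-type libraries.

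Factors known to act on Gzmb or Prf1 were found both among those called and among those not called, and the ones named here were picked after their values were seen. Stat5a, which carries interleukin 2 signals, had 19.7 and 21.6 FPKM in the HPK1-/- libraries, against 37.3 and 27.4 FPKM in the wild-type libraries (log2 fold change -0.61 ± 0.16, SE; adjusted p = 0.0414). It was lost without wild-type library 1 or an HPK1-/- library (adjusted p up to 0.179). Rbpj, the nuclear partner of Notch, had 51.4 and 47.9 FPKM in the HPK1-/- libraries, against 66.3 and 73.0 FPKM in the wild-type libraries (adjusted p = 0.0179, and up to 0.114 without an HPK1-/- library). Tbx21, which encodes T-bet, had 26.6 and 28.0 FPKM in the HPK1-/- libraries and 25.9 and 23.6 FPKM in the wild-type libraries (adjusted p = 0.302). Eomes had 74.3 and 78.1 FPKM in the HPK1-/- libraries and 89.8 and 79.6 FPKM in the wild-type libraries (adjusted p = 0.263). Runx3 had 61.6 and 57.9 FPKM in the HPK1-/- libraries and 67.3 and 56.6 FPKM in the wild-type libraries, which overlapped (adjusted p = 0.765). Prdm1, which encodes Blimp-1, had a difference of -0.45 ± 0.14 (SE) on the log2 scale and was not called (adjusted p = 0.0627). Of the 13 calls, those of Junb, Jun, Id2, Bhlhe40 and Irf8 passed with any single library left out. The 3 higher calls were lost when HPK1-/- library 1 or 2 was left out. Some lower calls, that of Irf4 among them, were then lost too, and calls over all tested genes also fell in number.

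**Figure D5:**
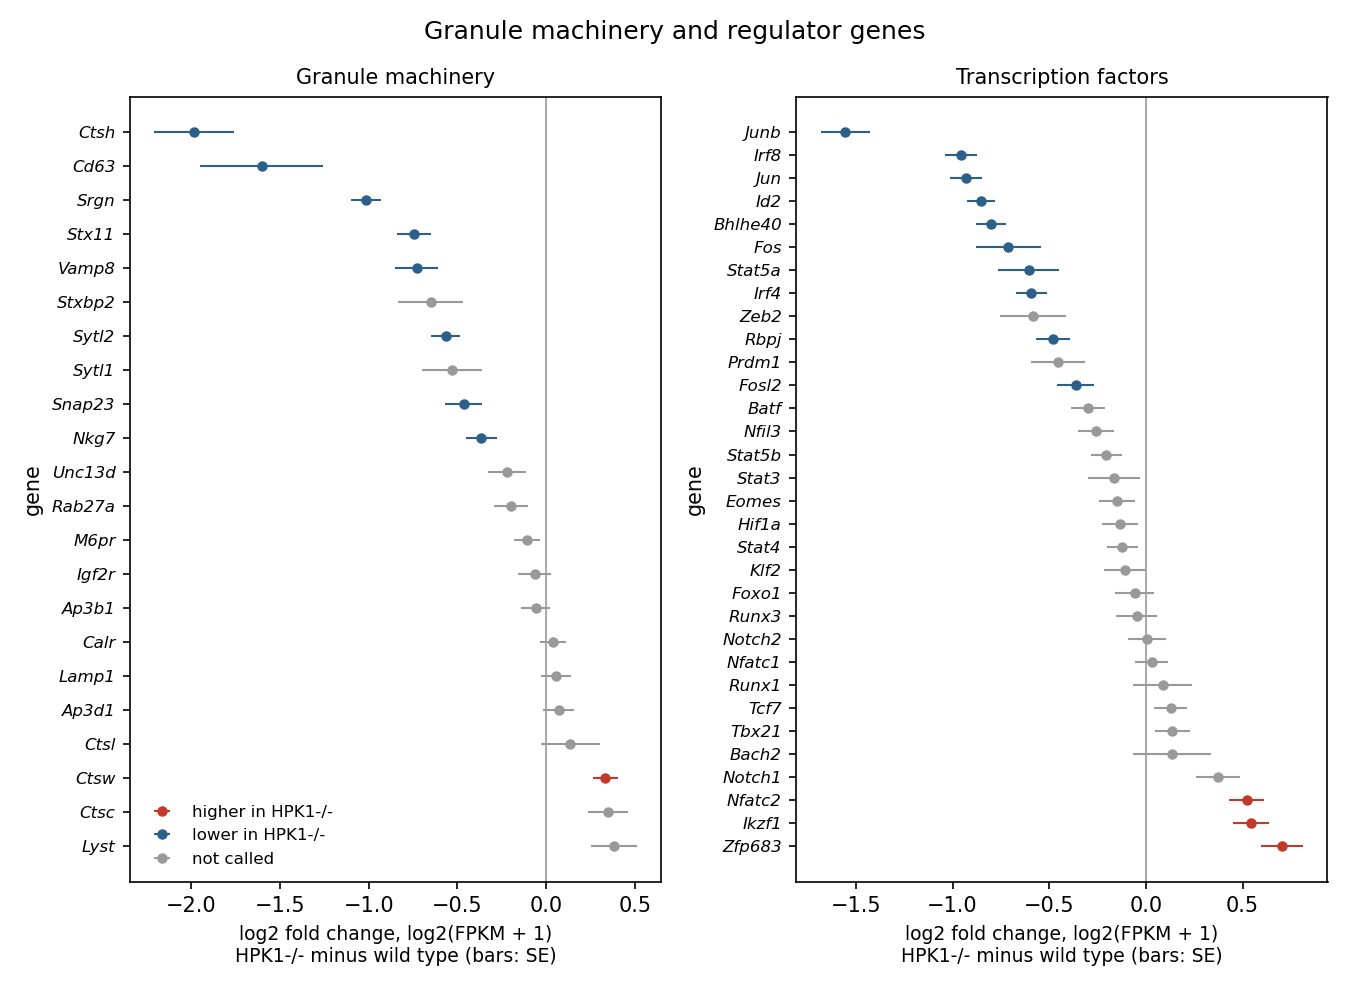
Log2 fold changes on log2(FPKM + 1), HPK1-/- minus wild type, of the 22 tested granule machinery genes (left) and the 32 tested transcription factors (right), with SE bars. Red marks genes called higher, blue genes called lower and grey genes not called. Ctsh and Cd63 lie lowest on the left and Junb on the right, and the points near 0 include Lamp1, Calr, Runx3 and Nfatc1.

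Markers of the labelled cell type were abundant in both genotypes, and those of some other cells differed with them. The 5 T cell markers summed to 1290 and 1260 FPKM in the HPK1-/- libraries and 1170 and 1240 FPKM in the wild-type libraries, with Cd3d lower and Cd2 and Trac higher. The CD8 markers Cd8a and Cd8b1 summed to 382 and 393 FPKM in the HPK1-/- libraries and 382 and 384 FPKM in the wild-type libraries. The CD4 markers summed to 18.7 and 16.3 FPKM in the HPK1-/- libraries and 16.3 and 17.0 FPKM in the wild-type libraries. Of 6 natural killer (NK) cell markers 4 had rows, the 2 tested, Klrb1c and Klra7, were lower, and Ncr1 was at 0 in the HPK1-/- libraries and at 0.0767 and 0.0821 FPKM in the wild-type libraries. The NK sum was 6.14 and 5.92 FPKM in the HPK1-/- libraries, against 18.0 and 18.3 FPKM in the wild-type libraries. Gamma delta T cell markers summed to 26.4 and 23.9 FPKM in the HPK1-/- libraries, against 48.7 and 55.4 FPKM in the wild-type libraries, with 3 of 3 tested lower. Trdc, which defines those cells, had 0.332 and 0.571 FPKM in the HPK1-/- libraries and 0.943 and 1.04 FPKM in the wild-type libraries. The calls of Klra7 and of the gamma delta marker Tcrg-C1 were near the threshold (limma adjusted p = 0.0451 and 0.0477). Both were lost with any single library left out, and the calls of Cd3d, Cd2 and Trac when HPK1-/- library 1 or 2 was left out.

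Regulatory T cell markers summed to 288 and 281 FPKM in the HPK1-/- libraries, against 323 and 359 FPKM in the wild-type libraries, with 2 of 4 lower. Foxp3, which defines those cells, had 0.128 and 0.228 FPKM in the HPK1-/- libraries, against 5.40 and 4.65 FPKM in the wild-type libraries. The mast cell and basophil sum was 0.113 and 0.145 FPKM in the HPK1-/- libraries, against 5.59 and 6.04 FPKM in the wild-type libraries, nearly all of it Mcpt8. Stroma and epithelium markers summed to 15.1 and 14.8 FPKM in the HPK1-/- libraries, against 20.1 and 26.5 FPKM in the wild-type libraries, with Epcam the 1 of 2 tested that was lower. Macrophage and dendritic cell markers summed to 2.68 to 5.02 FPKM over all libraries and those of red cells to 2.08 to 5.36 FPKM, and neutrophil, plasmacytoid dendritic cell, B cell and melanocyte markers stayed below 1 FPKM in sum. The part of these other cells in the granzyme and perforin differences was not tested.

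The genes whose profile over the 4 libraries lay nearest to that of a granzyme differed between Gzmd, Gzmb and Prf1. Likeness was the Euclidean distance between log2(FPKM + 1) values, each less the mean of its gene, so that a small distance mostly means a fold change of like size. Among the members, Gzme (distance 0.0868), Gzmg (0.0984) and Gzmf (0.982) lay nearest to Gzmd, Gzmc (0.483) nearest to Prf1 and Gzmk (0.268) nearest to Gzmb. With the members left out of the search, the nearest to Gzmd were Ifng (distance 1.11), Il13 (1.18), Penk (1.37), Ccl9 (1.75) and Serpinb9b (1.91), all of them further from Gzmd than Gzme, Gzmg and Gzmf were. Distances were taken with 1 FPKM added only, and their order may differ on another scale. With 0.1 FPKM added the log2 fold change was -6.62 for Gzmd, -6.52 for Il13, -6.50 for Gzmf, -7.02 for Penk and -7.33 for Gzmg. Il13, a type 2 cytokine, had 0.613 and 0.638 FPKM in the HPK1-/- libraries, against 65.1 and 67.5 FPKM in the wild-type libraries. Nearest to Prf1, members again left out, were Tnfrsf11b (0.110), Egr1 (0.164), Havcr2 (0.193), Mcpt8 (0.201) and Serpinb6b (0.233). Havcr2, the inhibitory receptor TIM-3, had 9.41 and 8.07 FPKM in the HPK1-/- libraries, against 45.6 and 49.5 FPKM in the wild-type libraries. Gzmb, with its small difference, lay nearest, outside the members, to Fgl2 (0.0206), Ptk2b (0.0219), Snx9 (0.0276), Elmo2 (0.0283) and Trnau1ap (0.0295).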

How the data were processed

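The authors deposited FPKM values per Ensembl gene for 4 libraries. HISAT, Cuffnorm and the build GRCm38 are named per the submitters' processing notes. Versions, the annotation, read length and strand setting are not given in the sources used here. Cuffnorm scales FPKM across libraries, so fold changes depend on its scaling; equal totals were tried instead. GENCODE M21 on GRCm38 gave symbols and positions for 21011 of 21146 gene IDs.

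Genes that reached 1 FPKM in 2 or more libraries were tested on log2(FPKM + 1) with limma 3.58.1 (R 4.3.3; mean-variance trend, two-sided), with Benjamini-Hochberg adjustment over all tested genes and a threshold of 0.05. The fit was tested on simulated data. Residual degrees of freedom were 2 and prior degrees of freedom 3.39. Fold changes on this scale understate the change of low genes. Sums and shares had exact permutation tests over libraries.

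Depth is not in the table. In 3724 genes with a single transcript, 91.9% to 92.8% of low values came within 0.1 of whole fragments, at scales and a fragment length of 260 nt chosen for the sharpest steps, so fragment numbers are approximate. Replicates differed beyond sampling noise (chi-square per degree of freedom 4.81 for HPK1-/- and 9.72 for wild type). The labels do not say that same-numbered libraries pair, so the numbers were not taken as pairs. Deviations of same-numbered libraries correlated at -0.03, which cannot settle if they pair.

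The members and lists were chosen with earlier results of these data known. Named genes were the members, Map4k1, other genes of the Gzm name, the list genes with the lowest p (at most 8 a list), the most highly expressed neighbour of each locus, and the 5 genes outside the members nearest in profile to Gzmd, Gzmb and Prf1. Nkg7, Stat5a, Rbpj, Nfatc2 and the list genes given as not called, and the marker genes named singly, were added after their values were seen. Marker genes with no value above (Klra4 and Klra8, for example) were not analysed here. Coding and upstream identities came from global alignments of GENCODE and RefSeq sequence. All 10 members matched the RefSeq table, whose starts differ from GENCODE's for some genes, Gzmb among them. Alternatives covered the pseudocount, filter, scaling, variance model, a replicate block and each library left out in turn; the lone library was then assumed to vary like the other pair.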

Additional observations from a re-analysis of the deposited data

How the results depend on the processing

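The 7 called members stayed called in all 14 alternatives, and no result reversed. Gzmb became a call with a pseudocount of 0.1 (log2 fold change -0.31, adjusted p = 0.0498), a filter of 5 FPKM (-0.31, 0.0458), median-of-ratios scaling (-0.33, 0.0475) and robust variances (-0.31, 0.0317). Counts of calls moved most. Without the filter on low values, which adds low genes to the test, 622 genes were lower and 609 higher, with 4 lower in the granule list, 1 in the killing list, 6 lower and 0 higher in the regulator list, and 2 neighbours higher. Equal totals gave 3411 genes higher, 3 granule genes higher, and 6 neighbours lower and 16 higher; without the variance trend 0 granule genes were higher. With a library left out, 390 to 1542 genes were lower and 189 to 1693 higher, against 1551 and 1839 with all; granule genes lower numbered 3 to 9 and higher 0 to 1, killing genes lower 1 to 3, regulators lower 5 to 9 and higher 0 to 4, and neighbours lower 3 to 10 and higher 0 to 6. The low ends came from leaving out HPK1-/- library 1 or 2. Shares of the pool depend on its definition: without Gzmb the chromosome 14 share was 17.7% in HPK1-/- and 59.4% in wild type, chromosome 13 82.1% and 40.6%, and chromosome 10 0.248% and 0.0232%; with Prf1 added, chromosome 14 was 91.3% and 83.1%, chromosome 13 15.2% in wild type, and Gzmb 89.6% and 60.8%. The pool ratio was 0.615 with equal totals. With the replicate number as a block, 7 members were lower, 1348 genes were lower and 1453 higher, the adjusted p of Gzmb was 0.0994, and no member's call changed. Gzmk and Gzmm have no value under the 5 FPKM filter, and the Gzmb share has none without Gzmb. Beyond construction the causes were not tested. With 2 libraries per genotype and no stated mice, biological spread is unknown, and Gzmf, Gzmg, Gzmk and Gzmm rest on few fragments.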
